A study of Mus musculus with 5 samples.

Results

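The genes described here are receptors of the tumor necrosis factor (TNF) superfamily that T cells use for costimulation, survival or death signals. Of 10 genes named by symbol, 9 had probe sets on the array: Tnfrsf4, Tnfrsf9, Tnfrsf18, Tnfrsf19, Tnfrsf1a, Tnfrsf1b, Tnfrsf25, Cd27 and Fas. They carry 14 of the 45101 probe sets of the array, or 9 of 18193 genes named by a probe set with 1 symbol. Tnfrsf26 matched no probe set by symbol and was not analysed here. The study profiled mouse CD4+ T cells with a transgenic T cell receptor for an antigen of MOPC315, a BALB/c myeloma. All mice were TCR-transgenic SCID animals on the Balb/c background, aged 7 to 12 weeks, so that they lack most other T and B cells. The 3 activated samples were sorted as CD4+ GB113+ cells, at least 95% pure, from pooled draining lymph nodes 8 days after 100000 tumor cells in 250 µl of Matrigel had been placed under the skin of 12 to 15 mice. The 2 naive samples were prepared in the same way from lymph nodes, also pooled, of naive transgenic SCID mice. Samples of a group came from independent experiments, and no group given Matrigel alone was analysed here.

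Receptors of this family bind trimeric ligands of the TNF family, mostly on antigen-presenting cells, and recruit TRAF adaptor proteins that lead to NF-kB and kinase signalling. Some of them, such as Fas, instead carry a cytoplasmic death domain that can assemble a caspase-activating complex. In T cells, CD27 is already present before activation, whereas OX40 (encoded by Tnfrsf4), 4-1BB (Tnfrsf9) and GITR (Tnfrsf18) are known to increase after antigen recognition and to sustain division and survival.

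Of 10 CD4+ T cell marker genes, 9 had a probe set, and each exceeded the 40th percentile of intensities in all 5 samples. The 2 CD8 T cell markers did so as well, so passing this low cutoff does not show which T cells were present. Activated replicate 1 stood apart from the other arrays in transcripts of other cell types. Its summed intensity was 2994 over 9 dendritic cell markers, against 164 to 366 on the other 4 arrays. For 7 NK cell markers it was 1800 against 531 and 703 on the other activated and 424 and 527 on the naive arrays. For 9 macrophage or monocyte markers it was 5097 against 2021 to 3076, and for 6 neutrophil markers 928 against 41.7 to 102. Most of the dendritic cell sum on activated replicate 1 was Cd74, H2-Aa and H2-Ab1, at 1096.4, 1174.6 and 518.3. Zbtb46 and Xcr1, at 27.7 and 8.7, were not highest on that array, while the other listed dendritic cell markers were. Several lists differed between the groups without overlap, as did 40.9% of all single genes tested. Among these lists were that of NK cells above and that of CD4+ T cells. The CD4+ T cell sum was 17528 to 19517.1 in activated and 16578.2 and 17249.3 in naive samples. Over 7 B cell markers the summed intensity was 108 to 187 in activated and 82.2 to 89.7 in naive samples. The summed intensity of 2 CD8 T cell markers was 271 to 406 in activated and 852 to 1040.3 in naive samples, and that of 6 regulatory T cell markers 325 to 466 and 266 to 290. For 8 stromal or endothelial markers it was 371 to 457 and 228 to 265, and for 5 exocrine pancreas markers 156 to 193 and 226 to 241. Most of the stromal or endothelial sum was Pecam1, at 258.6 to 345.4 against 157.9 and 168.7. Of the CD8 genes, Cd8b1 was lower, at 246.8 to 326.5 against 797.6 and 995.7, and Cd8a overlapped. Of the pancreas genes, Prss2 was higher, at 131.1 to 160.4 against 97.2 and 82.5, Cpa1 overlapped, and Cela2a, Cela3b and Ctrb1 were lower. The part of these cell types in the member results was not tested.

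Sequences upstream of the start sites are shown for 3 of the 4 members that rose. Whether these genes share regulation was not tested. They are the 250 bases before the RefSeq start site on assembly GRCm38.p6, read 5′ to 3′ on the gene's strand, and capitals mark motif matches on either strand. Tnfrsf9 has a pair of annotated start sites, and the second window is the one with most matches. Tnfrsf19 also has a second annotated start site, whose window is not shown. The window of Tnfrsf4 is not shown because it overlaps the end of the neighbouring gene Sdf4. The windows are chr4:150919905-150920154 (+) and chr4:150927749-150927998 (+) for Tnfrsf9, chr4:156026072-156026321 (+) for Tnfrsf18 and chr14:61046856-61047105 (-) for Tnfrsf19.
Tnfrsf9, first start: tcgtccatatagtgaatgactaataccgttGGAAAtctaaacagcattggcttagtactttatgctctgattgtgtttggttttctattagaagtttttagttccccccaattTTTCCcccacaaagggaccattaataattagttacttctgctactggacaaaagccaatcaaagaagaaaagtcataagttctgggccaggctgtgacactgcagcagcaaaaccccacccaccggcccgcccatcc
Tnfrsf9, second start: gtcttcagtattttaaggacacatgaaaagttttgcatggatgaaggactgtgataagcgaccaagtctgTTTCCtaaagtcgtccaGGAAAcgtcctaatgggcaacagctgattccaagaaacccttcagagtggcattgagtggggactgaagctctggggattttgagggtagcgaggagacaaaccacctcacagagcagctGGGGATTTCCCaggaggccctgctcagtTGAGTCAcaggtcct
Tnfrsf18: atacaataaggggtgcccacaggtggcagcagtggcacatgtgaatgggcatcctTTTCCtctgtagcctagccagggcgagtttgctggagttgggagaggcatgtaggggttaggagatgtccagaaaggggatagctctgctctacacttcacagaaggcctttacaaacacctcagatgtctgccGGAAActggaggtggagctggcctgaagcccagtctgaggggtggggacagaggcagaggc
Tnfrsf19, first start: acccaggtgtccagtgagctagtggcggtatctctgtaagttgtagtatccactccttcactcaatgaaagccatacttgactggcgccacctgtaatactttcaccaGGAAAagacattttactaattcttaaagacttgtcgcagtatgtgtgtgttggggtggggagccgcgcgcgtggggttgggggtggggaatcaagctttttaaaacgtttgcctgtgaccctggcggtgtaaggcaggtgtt

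The motifs searched were the kappaB consensus that NF-kB binds, the AP-1 site TGANTCA and the NFAT core GGAAA. All 9 members had at least 1 window, 12 in all. The second Tnfrsf9 window held 2 overlapping kappaB matches in the run GGGGATTTCCC and, after them, the AP-1 match TGAGTCA. The kappaB matches there also overlap an NFAT core. Among 32851 RefSeq windows of the same length, 7.25% held a kappaB match, 6.75% the AP-1 site and 55.6% the NFAT core. Outside Tnfrsf9, a kappaB match was found in 1 Tnfrsf25 window and an AP-1 match in the Fas window, and neither of these genes passed the test. The window of Tnfrsf4 held 1 NFAT core and no match to the other 2 motifs. These matches are letters in a window and not measured binding.

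Activated cells had more transcript of the costimulatory receptors Tnfrsf9, Tnfrsf4 and Tnfrsf18 and of Tnfrsf19, while the death receptor Fas, Tnfrsf1a, Tnfrsf1b, Tnfrsf25 and Cd27 did not pass the test. Of the 9 member genes, all tested, 4 rose and 0 fell from naive to activated. The rule was an adjusted p below 0.05 from limma, with Benjamini-Hochberg correction across 12873 genes. By that rule 10.5% of all genes tested changed, 6.36% upward and 4.14% downward. All 4 rises were also at least 2-fold, as were those of 3.81% of all genes. At an unadjusted p under 0.05 in limma's fit the member counts were also 4 and 0, against 1647 and 1478 of all 12873 genes. The median log2 fold change of the 9 genes was 0.11, against -0.03 over all genes, and the members split into 4 large rises and 5 smaller differences. At the level of single probe sets, 13 of 14 passed the intensity filter, 7 of these rose and 0 fell. Of those that rose, 1460469_at and 1428034_a_at of Tnfrsf9 and 1415921_a_at of Tnfrsf19 passed the filter only through the activated arrays. Of 29240 probe sets tested, 7.74% changed, 4.8% upward and 2.94% downward. Member counts were the same at an unadjusted p under 0.05 in limma's probe set fit, whose share over all probe sets is not given. Bulk arrays cannot tell more cells with a transcript from more transcript per cell.

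**Figure D1:**
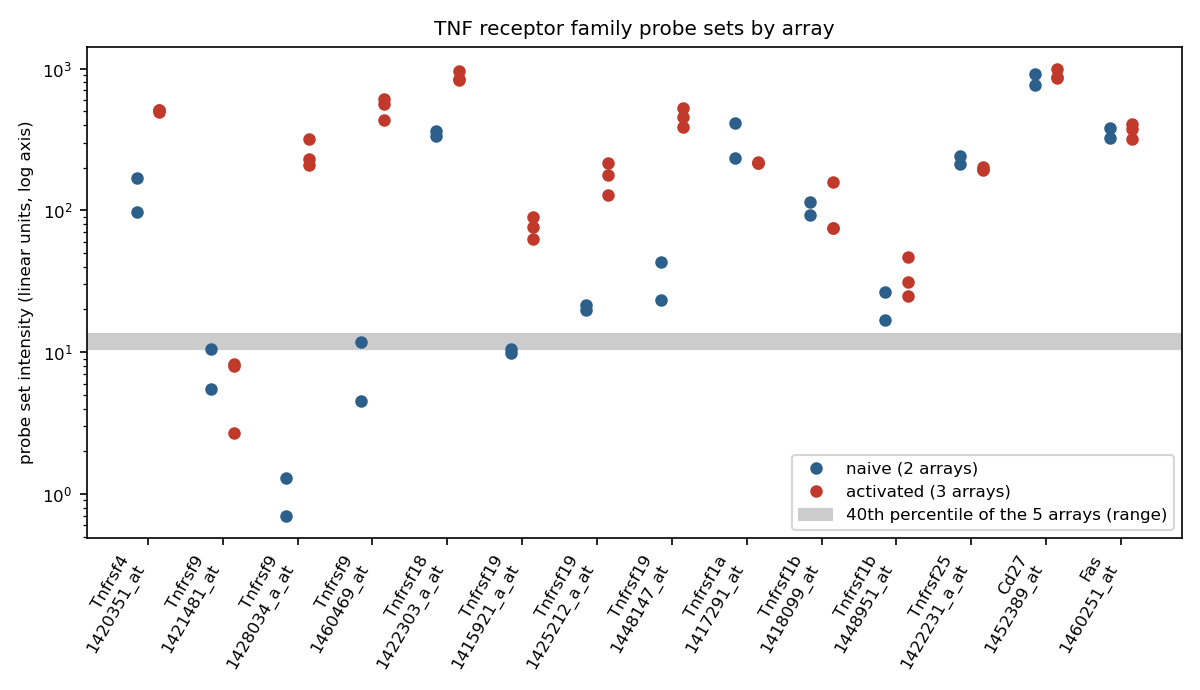
Intensity of the 14 member probe sets on each array, on a log axis, with naive arrays in blue (2), activated arrays in red (3) and a grey band for the range of the arrays' 40th percentiles, 10.5 to 13.4. The 7 probe sets that passed the test, of Tnfrsf4, Tnfrsf9, Tnfrsf18 and Tnfrsf19, have all activated points above both naive points.

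Tnfrsf9 encodes 4-1BB (CD137), an inducible costimulator that signals through TRAF1 and TRAF2. On the probe set with the highest mean, 1460469_at, its intensity was 607.7, 559.9 and 433.6 in activated and 11.7 and 4.5 in naive samples. Every activated value lay far above both naive values, and the naive values lay below the 40th percentile of their arrays, which was 13.4 and 10.8. The log2 fold change was 4.51 ± 0.21 (SE, n = 3 and 2, adjusted p = 5.21e-06 in limma's fit), the second highest of 12873 genes. This value is on the scale of log2(intensity + 16). With dim naive values its size is set in part by the added 16: it was 5.99 with 1 and 3.04 with 64. The probe set 1428034_a_at gave 319.9, 209.2 and 231.2 against 1.3 and 0.7, and a log2 difference of 3.96 ± 0.23 (SE, adjusted p = 1.84e-05 in limma's probe set fit). With 1 and 64 added in place of 16 it was 6.98 and 2.27. Its naive values also lay below the 40th percentile, so both probe sets entered the test only through the activated arrays. The third probe set, 1421481_at, did not follow the others. It read 8.0, 2.7 and 8.2 on activated and 5.5 and 10.6 on naive arrays, below the 40th percentile on all 5, and was not tested. Averaging all 3 probe sets gave a log2 fold change of 2.79, which passed.

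Tnfrsf4 encodes OX40, a costimulator of CD4+ T cell survival. Its intensities were 508.5, 512.1 and 496.1 in activated and 168.5 and 97.7 in naive samples. The activated values were nearly equal, and most of the spread lay between the 2 naive arrays. The means were 506 ± 8.39 (SD, n = 3) and 133 ± 50.1 (SD, n = 2), a ratio of 3.80. The fitted log2 difference, activated minus naive, came to 1.85 ± 0.21 (SE; limma's adjusted p = 0.0003), and it ran from 1.5 without naive replicate 2 to 2.20 without naive replicate 1.

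Tnfrsf18 encodes GITR, a costimulator that is also high on regulatory T cells. It read 958.5, 846.7 and 825.1 in activated and 365.4 and 336.8 in naive samples. The groups did not overlap, and naive cells had a clear level of this transcript. The means were 877 ± 71.6 (SD, n = 3) and 351 ± 20.2 (SD, n = 2), a ratio of 2.50. In the fit, activated minus naive was 1.28 ± 0.16 (SE; limma's adjusted p = 0.000472). Of 6 regulatory T cell markers, the defining factor Foxp3 lay between 6.7 and 19.1 with overlapping groups, and Il2ra and Nrp1 overlapped too. Gpr83 read 88.2, 121.1 and 81.4 against 12.8 and 32.5, and Ikzf4 125.2, 166.3 and 179.8 against 52.9 and 78.2, while Itgae was lower, at 7.6 to 18.0 against 88.5 and 91.3. The part of regulatory T cells in the Tnfrsf18 value was not tested. On assembly GRCm38.p6, Tnfrsf18 is the next protein-coding gene after Tnfrsf4 on chromosome 4, so these 2 rises concern neighbouring genes.

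Tnfrsf19 encodes TROY, a receptor without a death domain that is better known from neural and epithelial tissues than from T cells. On 1448147_at it read 527.9, 457.9 and 388.3 in activated and 43.2 and 23.3 in naive samples. The lowest activated value was 2.77 log2 units above the highest naive value. The log2 difference was 3.29 ± 0.22 (SE; limma's adjusted p = 1.11e-05), which ranked 17 among all genes tested. The other 2 probe sets moved the same way. The probe set 1425212_a_at read 215.4, 178.5 and 128.8 against 21.5 and 19.9, with a log2 fold change of 2.35 ± 0.24 (SE). The probe set 1415921_a_at read 89.8, 62.7 and 76.6 against 10.5 and 9.8, with 1.81 ± 0.23 (SE). Both passed in limma's probe set fit, with adjusted p of 0.000301 and 0.001. The naive values of 1415921_a_at lay below the 40th percentile of their arrays, so it entered the test only through the activated arrays. Its log2 difference was 2.78 with 1 added and 0.92 with 64 added in place of 16. With 1 and 64 added, 1448147_at gave 3.80 and 2.42, and 1425212_a_at 2.98 and 1.48. For these 2 probe sets the ratios of mean intensities were 13.8 and 8.42.

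**Figure D2:**
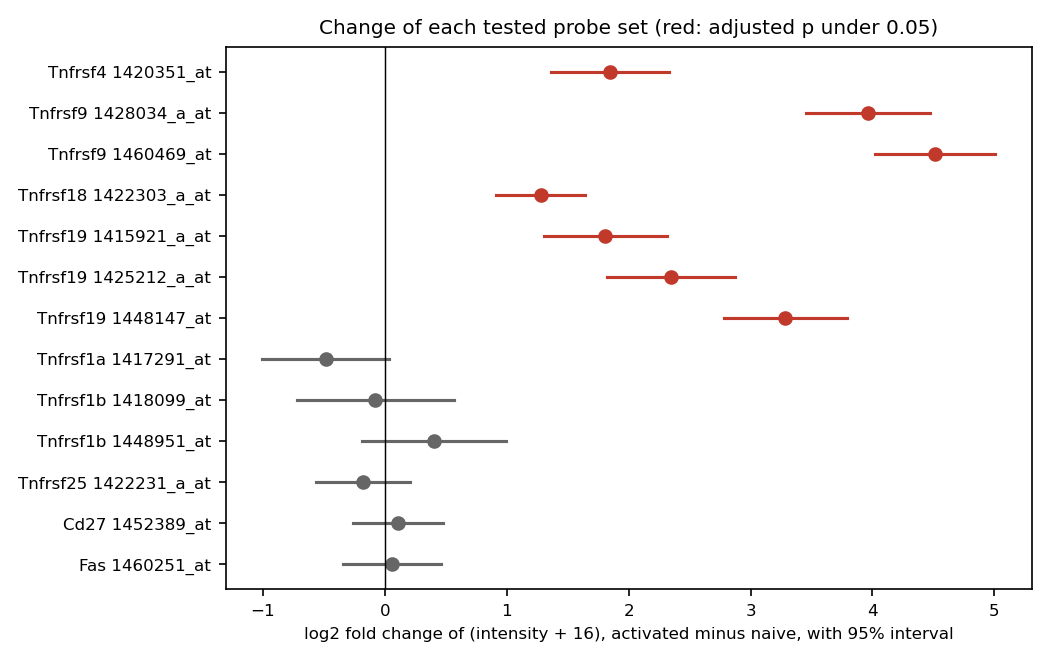
Log2 fold change of each of the 13 tested member probe sets, activated minus naive on the scale of log2(intensity + 16), with the 95% interval of limma's moderated fit as a line. The 7 probe sets in red passed the test, from 1.28 for Tnfrsf18 to 4.51 for Tnfrsf9, and the 6 in grey have intervals that include 0.

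Cd27, the receptor for CD70 that supports priming and survival of naive T cells, was bright on all arrays. It read 986.8, 875.0 and 851.8 in activated and 766.3 and 911.3 in naive samples, and the groups overlapped. In the fit, activated minus naive was 0.11 ± 0.16 (SE; limma's adjusted p = 0.74), with a 95% interval from -0.25 to 0.47. A change of 2-fold in either direction lies outside that interval, although a smaller change does not.

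Fas, the death receptor that triggers apoptosis through FADD and caspase-8, read 375.2, 319.4 and 409.0 in activated and 322.6 and 380.8 in naive samples. The groups overlapped, and the log2 difference came to 0.06 ± 0.17 (SE; limma's adjusted p = 0.88), with a 95% interval from -0.32 to 0.44. Its ligand Fasl was tested with the ligands below and rose.

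Tnfrsf1a encodes TNFR1, the death domain receptor for TNF. It read 219.8, 216.9 and 216.9 in activated and 415.8 and 232.1 in naive samples. All activated values were below both naive values, but naive replicate 2 was close to them and naive replicate 1 was far above. The log2 difference was -0.49 ± 0.22 (SE; limma's adjusted p = 0.22; 95% interval -0.98 to 0.01). Without naive replicate 2 it was -0.88 and passed (adjusted p = 0.038), and without naive replicate 1 it was -0.09. The value therefore rests on which naive array is kept.

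Tnfrsf1b encodes TNFR2, which has no death domain and is found on activated and regulatory T cells and on myeloid cells. Its brighter probe set read 157.2, 74.9 and 75.6 in activated and 93.4 and 113.9 in naive samples. Activated replicate 1 was the highest and the other 2 activated arrays the lowest. In the fit, activated minus naive was -0.08 ± 0.28 (SE; limma's adjusted p = 0.91; 95% interval -0.70 to 0.55). The second probe set, 1448951_at, read 46.6, 24.9 and 31.1 against 26.4 and 16.8, with 0.41 ± 0.26 (SE, adjusted p = 0.41 in limma's probe set fit). Activated replicate 1 exceeded the mean of the other 2 activated arrays by 0.92 log2 units in Tnfrsf1b, the most of the 9 members. It exceeded them by a median of 1.77 over 7 tested dendritic cell markers and 2.39 over 6 tested NK cell markers. Without activated replicate 1 the value for Tnfrsf1b was -0.39 and did not pass (adjusted p = 0.32 in limma's fit). The part of those cells in it was not tested.

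Tnfrsf25 encodes DR3, a death domain receptor for the cytokine TL1A that costimulates T cells. It read 193.6, 202.4 and 196.4 in activated and 240.8 and 211.8 in naive samples. The activated values all lay below the naive ones by a small margin. The log2 difference was -0.18 ± 0.16 (SE; limma's adjusted p = 0.55; 95% interval -0.54 to 0.18). With this gene, 6 of the 9 members had groups that did not overlap, against 40.9% of all genes tested. In 4 of them all activated values were the higher ones, against 20.3% of all genes.

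**Figure D3:**
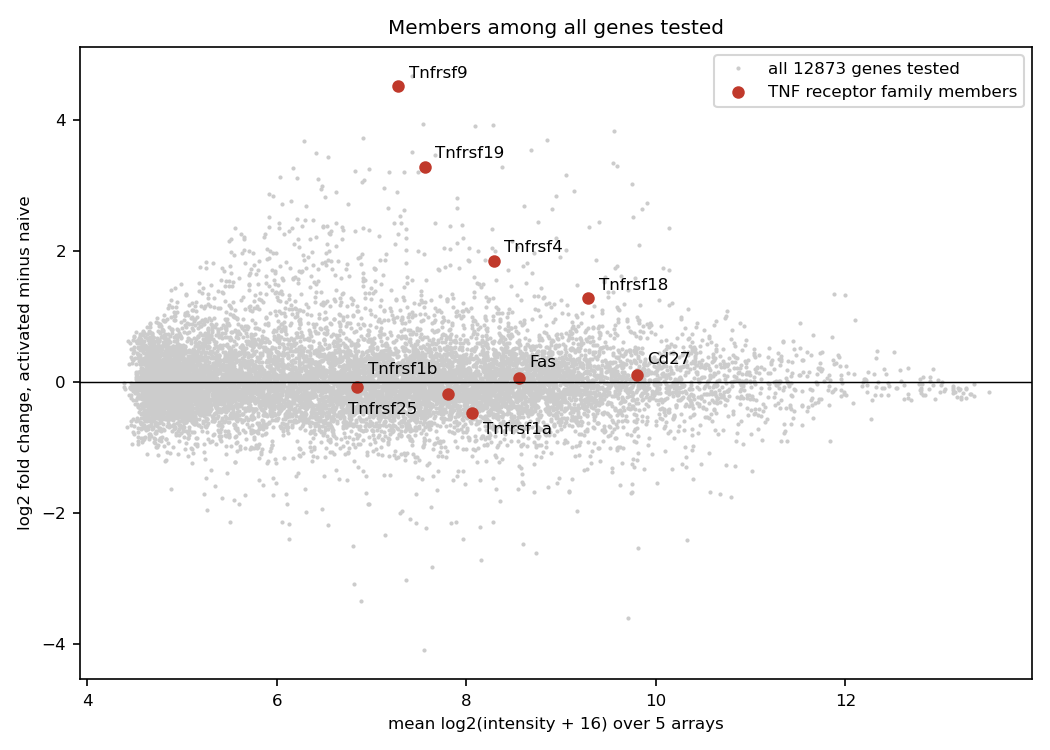
Log2 fold change (activated minus naive) against the mean log2(intensity + 16) over 5 arrays for all 12873 genes tested (grey) and the 9 members (red, named). Tnfrsf9 at 4.51 and Tnfrsf19 at 3.29 lie near the upper edge of the cloud, Tnfrsf4 and Tnfrsf18 at 1.85 and 1.28, and the other 5 lie between -0.49 and 0.11.

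The 4 members that rose also did so when activated replicate 1 was left out, with log2 fold changes of 1.84 for Tnfrsf4, 4.42 for Tnfrsf9, 1.22 for Tnfrsf18 and 3.18 for Tnfrsf19. Activated replicate 1 was the highest activated array for Tnfrsf9, Tnfrsf18 and Tnfrsf19 on the probe sets used for these genes, by 0.29, 0.19 and 0.31 log2 units over the mean of the other 2, and was level with them for Tnfrsf4, at 0.01. The arrays also fell on 2 sides by the intensity of bioC, a hybridisation control, with activated replicate 3 and naive replicate 2 on the low side. The difference for Tnfrsf9 was 4.45 log2 units on the low side (1 array against 1) and 4.44 on the high side (2 against 1). For Tnfrsf18 these values were 1.25 and 1.27, for Tnfrsf19 3.36 and 3.10, and for Tnfrsf4 2.17 and 1.51. For Tnfrsf1a they were -0.09 and -0.88, for the brighter probe set of Tnfrsf1b -0.50 and 0.20, and for Cd27 -0.10 and 0.27. The signs of the latter 2 thus differed between the sides. The other Tnfrsf1b probe set, 1448951_at, had the same sign on both, at 0.52 and 0.26.

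**Figure D4:**
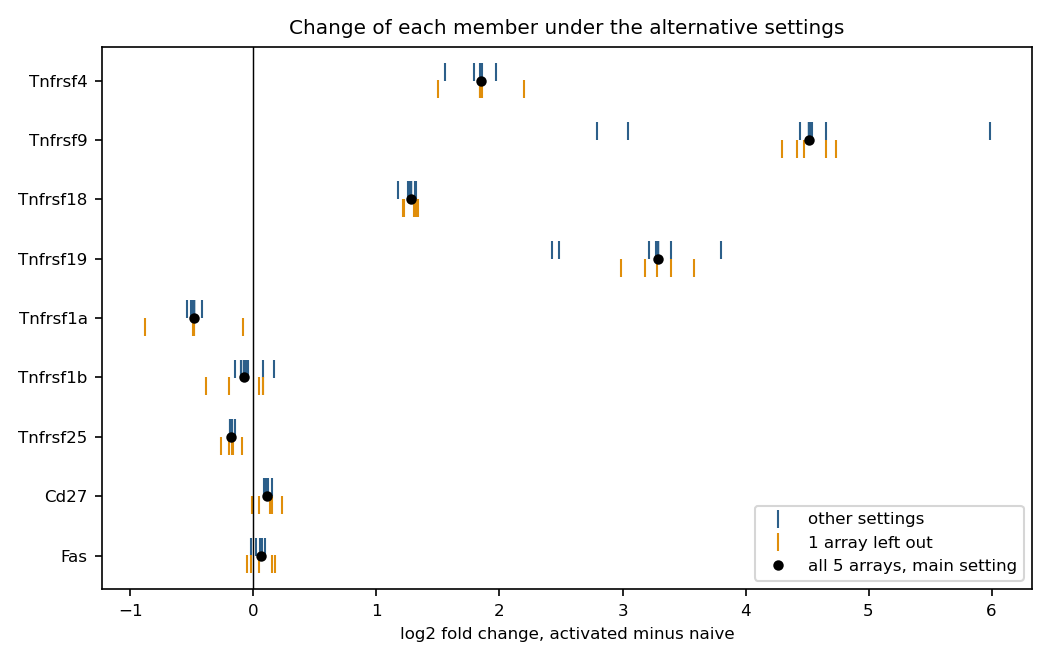
Log2 fold change of each member (activated minus naive) with all 5 arrays in the main setting (black point), with 1 array left out (orange ticks) and under the other settings (blue ticks). Tnfrsf4, Tnfrsf9, Tnfrsf18 and Tnfrsf19 stay above 1 at every tick, while Tnfrsf1b, Cd27 and Fas have ticks on both sides of 0.

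The genes with the most similar profiles were found by the root mean square difference of log2 values over the 5 arrays, after each profile was centred on its own mean. Nearest to Tnfrsf4 were Ifitm2 (0.03), the lipid-binding adaptor Unc119 (0.09) and the AP-1 family factor Batf (0.09). Nearest to Tnfrsf18 were the transcription inhibitor Id3 (0.05), the histone variant H2ax (0.06) and the MAP kinase phosphatase Dusp6 (0.06). Nearest to Tnfrsf19 were the nuclear receptor Nr4a3 (0.17), the replication factor Pclaf (0.17) and the mitotic kinase Cdk1 (0.19). Nearest to Tnfrsf9 were the nuclear receptor Nr4a1 (0.31), Ikzf2, which encodes Helios (0.37), and the proliferation antigen Mki67 (0.41).

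Ligands of the family were next. Of 17 listed ligands, 13 had a probe set and were tested, and 5 were higher and 1 lower in activated cells, with a median log2 fold change of 0.71. Over all genes tested, 6.36% were higher and 4.14% lower. By an unadjusted p under 0.05 in limma's fit, 8 ligands were higher and 1 lower, against 1647 and 1478 of all 12873 genes. The largest rise was that of Tnfsf11, which encodes RANKL, from 27.1 and 14.8 to 152.1, 120.8 and 112.3, or 1.98 ± 0.22 on the log2 scale (SE; limma's adjusted p = 0.000319). Tnfsf4, which encodes the OX40 ligand, read 173.4, 202.5 and 177.5 against 56.2 and 50.3, or 1.53 ± 0.18 higher on the log2 scale (SE; limma's adjusted p = 0.000347). Receptor and ligand of this pair were thus both higher in the activated samples. Fasl, the ligand of Fas, read 140.4, 132.2 and 134.6 against 51.4 and 35.9, with 1.36 ± 0.19 (SE, adjusted p = 0.0013 in limma's fit), whereas its receptor did not pass. The death ligand Tnfsf10 (TRAIL) fell by 0.69 (adjusted p = 0.034 in limma's fit), a call lost whichever array was left out. The ligands of 4-1BB and CD27 are named for their receptors, after their values were seen: Tnfsf9 differed by 0.55 on the log2 scale (adjusted p = 0.18 in limma's fit) and Cd70 by 0.51 (adjusted p = 0.27), and neither passed. Tnf itself, the ligand of TNFR1 and TNFR2, also chosen after its values were seen, differed by 0.94 and did not pass (adjusted p = 0.13).

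Of 18 other receptors of the family, 12 were tested, and 1 was higher and 0 lower. At an unadjusted p under 0.05 in limma's fit, 2 were higher and 1 lower, against 1647 and 1478 of all 12873 genes. The receptor that rose by the adjusted rule was Tnfrsf13b, which encodes TACI, a receptor for BAFF and APRIL known mainly from B cells. It read 261.8, 228.8 and 272.9 in activated and 130.5 and 140.4 in naive samples, or 0.83 ± 0.17 higher on the log2 scale (SE; limma's adjusted p = 0.0096). The call was lost without naive replicate 1 or 2, at 0.79 and 0.88. The summed B cell markers also separated the groups, at 108 to 187 in activated and 82.2 to 89.7 in naive samples. Of the 7 genes, Cd22 read 59.7, 92.6 and 90.9 against 30.7 and 20.5, and Cd79b 11.2, 14.0 and 7.7 against 7.5 and 5.0. For the others the groups overlapped. Pax5 read 16.1, 27.5 and 22.8 against 3.9 and 16.8. Cd79a lay between 2.0 and 14.7 and Ms4a1 between 8.6 and 15.2, and Blk and Fcer2a overlapped as well. The part of B cells in the Tnfrsf13b value was not tested.

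Of 22 tested adaptors and death complex genes, 0 were higher and 3 lower, with a median log2 fold change of -0.11. At an unadjusted p under 0.05 in limma's fit, 3 were higher and 5 lower, against 1647 and 1478 of all 12873 genes. Cflar, which encodes the caspase-8 inhibitor c-FLIP, read 242.6, 278.5 and 253.7 against 452.5 and 441.2, a fall of 0.76 on the log2 scale (adjusted p = 0.011). Traf4 fell by 0.75 (adjusted p = 0.047) and the Fas-binding protein Daxx by 0.73 (adjusted p = 0.026). With all probe sets of a gene averaged, Cflar lay at -0.33 and Traf4 at -0.28, and neither passed. Without naive replicate 1 or naive replicate 2 the calls of all 3 were lost, with Cflar at -0.74 and -0.77 and Daxx at -0.73 in both cases. Traf4 lost its call whichever array was left out, and Daxx also without activated replicate 2 or 3. Of 20 tested genes of NF-kB and its feedback, 3 were higher and 1 lower, with a median of 0.33. Over all genes tested, 6.36% were higher and 4.14% lower. By an unadjusted p under 0.05 in limma's fit, 9 NF-kB genes were higher and 2 lower, against 1647 and 1478 of all 12873 genes. The inhibitor Nfkbid rose by 1.44, the subunit Rel by 1.10 and the kinase Map3k7 by 0.95, and the kinase subunit Ikbkb fell by 0.999 (adjusted p = 0.015, 0.0074, 0.02 and 0.0057 in limma's fit). Without naive replicate 1 the calls of all 3 rises were lost, with Nfkbid at 0.88 and Rel at 0.91. Map3k7 also lost its call when activated replicate 1 (0.78), activated replicate 2 (0.92) or else naive replicate 2 (0.89) was left out, without the intensity trend (adjusted p = 0.052), and at 0.23 with unsuffixed probe sets. The call of Ikbkb was lost without naive replicate 2, at -0.78. Without activated replicate 3 the NF-kB genes called higher numbered 5. With all probe sets averaged, Map3k7 lay at 0.16 and Ikbkb at -0.33, and neither passed.

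**Figure D5:**
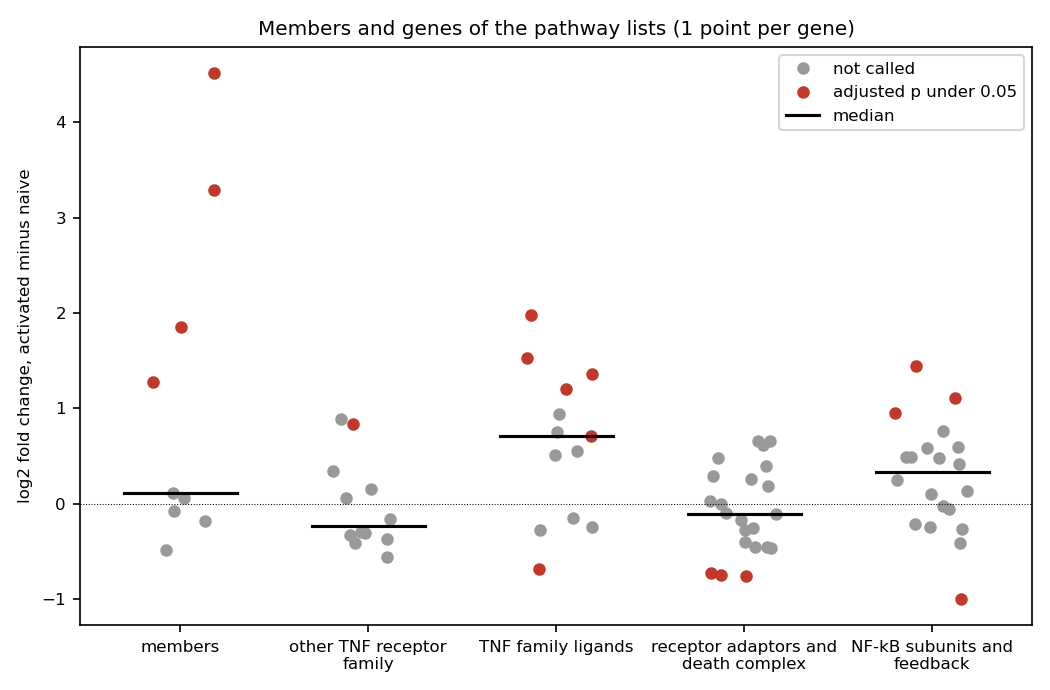
Log2 fold change (activated minus naive) of the 9 members and of the tested genes of the 4 lists, 1 point per gene, with red for an adjusted p under 0.05 and a black bar for the median. The 2 highest members lie above all points of the lists, and the ligand list has the highest median, 0.71.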

How the data were processed

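Per the labels, RNA was extracted with Trizol and 6 µg was made into biotin-labelled cRNA for Affymetrix arrays. The table deposited by the authors holds 1 linear intensity per probe set and array. Summary method, detection calls and genome build were not given in the sources used here. Each array had a 2% trimmed mean of 100, so changes are relative to an array's overall level.

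Symbols came from GEO's platform annotation, in which 34945 probe sets had 1 symbol, 932 several, 9160 none and 64 were controls. Of those with 1 symbol, 34741 had an Entrez ID in the RefSeq gene table of GRCm38.p6. Each gene was represented by its probe set with the highest mean, and a second fit took every probe set. Values were log2(intensity + 16), and a feature was tested if above the 40th percentile on at least 2 of 5 arrays. Two-sided tests used limma 3.58.1 in R 4.3.3 (lmFit, then eBayes with trend), with Benjamini-Hochberg adjusted p-values over all features and a threshold of 0.05. The fit was tested on simulated data, where false calls were somewhat more frequent than the threshold allows and many 2-fold changes were missed. Calls close to the threshold are therefore less certain, and a gene that did not pass is not shown to be unchanged. No pair of arrays shared more than 0.947% of its values exactly. The number of arrays limits the precision.

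The members, gene lists and alternatives were chosen with earlier results of these data known. Named genes were all members, up to 3 called rises and 3 called falls per list, and the 3 nearest profiles of members changed by at least 1. The 18 alternatives for genes were other normalizations, filters, pseudocounts, variance models, array weights, probe set rules, blocks and each array left out.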

Additional observations from a re-analysis of the deposited data

How the results depend on the processing

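The 4 rises of Tnfrsf4, Tnfrsf9, Tnfrsf18 and Tnfrsf19 passed under all alternatives that could be computed. Probe sets without a suffix left 7 members, 3 of them higher, since Tnfrsf18 and Tnfrsf25 have only probe sets with one. Probe sets called higher stayed at 7 throughout. With 1 array left out, member genes called higher stayed at 4 and those called lower ran from 0 to 1. Signal over background limits the size of the rise of Tnfrsf9 and of 1 Tnfrsf19 probe set, whose naive intensities lay below the 40th percentile, and the Tnfrsf9 probe set that was dim throughout. Where a naive array was left out, the lone one is assumed to vary like the activated arrays. The sign turned for members near 0. Tnfrsf1b was at 0.074 with the replicate block and 0.16 with averaged probe sets, and ran from -0.39 to 0.079 with 1 array left out. Cd27 ran from -0.014 to 0.23 with 1 array left out. Fas was at -0.017 with the replicate block and ran from -0.055 to 0.17 with 1 array left out. The cause was not tested.

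The replicate numbers were not shown to pair the arrays, and the replicate block changed no member call. Activated replicate 3 has no naive partner by number, so fold changes with the block equal those without that array, such as 1.86 for Tnfrsf4. These 2 settings are therefore not separate checks of the fold changes. Deviations from the group means correlated at 0.17 for number 1 and -0.13 for number 2 across genes, and at 0.31 for activated replicate 3 with naive replicate 2. The deviations of 2 naive arrays mirror each other, so such values cannot decide the pairing. With the replicate block, adaptors called higher were 2, NF-kB genes called higher 6 and ligands called lower 0. With the bioC split as a block, other receptors called higher were 2, adaptors called higher 3, NF-kB genes called higher 8, and all genes and all probe sets called lower 859 and 1486. With no filter, ligands called lower were 0, all genes called lower 349, and probe sets called higher and lower 870 and 510. Without the trend, ligands called lower were 0. With averaged probe sets, ligands called lower were 0, adaptors called higher and lower 1 and 1, and NF-kB genes called lower 0. Without suffixed probe sets, adaptors called higher were 1.

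With 1 array left out, the counts ran from 0 to 1 for other receptors called higher, from 0 to 0 for ligands called lower, from 0 to 1 and from 0 to 2 for adaptors called higher and lower, from 0 to 5 and from 0 to 1 for NF-kB genes called higher and lower. They ran from 463 to 713 and from 185 to 508 for all genes called higher and lower, against 819 and 533, and from 723 to 1331 and from 324 to 645 for probe sets, against 1403 and 859.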

Other observations

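Among the family's other receptors, Tnfrsf14, which encodes the herpesvirus entry mediator, read 116.7, 78.9 and 274.4 in activated and 54.3 and 83.2 in naive samples, with activated replicate 3 above the rest (log2 fold change 0.88, adjusted p = 0.20 in limma's fit). Cd40, a receptor of antigen-presenting cells, read 73.6 on activated replicate 1 and 17.5 to 31.6 on the other 4 arrays. The summed dendritic cell markers were also highest on that array, and the part of dendritic cells in the Cd40 value was not tested. Both genes were chosen after their values were seen.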
